A study of Mus musculus with 7 samples.

Results

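Cytosolic ribosomal protein genes were examined in the kidney cortex of BPS-TA and WT mice. Members were the entries of the per-kidney table named Rpl or Rps with a number, with or without a letter (a, x, y or l) and further digits after it, together with Rpsa, Rplp0, Rplp1 and Rplp2 and without the S6 kinases. The rule found 83 genes among 22053 listed protein-coding entries, 51 of the large 60S subunit and 32 of the small 40S subunit. Of these, 75 had at least 1 FPKM (fragments per kilobase of transcript, scaled to sequencing depth) in at least 3 kidneys and were tested, 46 of the 60S and 29 of the 40S subunit. The other 8 (Rpl10l, Rpl19, Rpl23a, Rpl39l, Rpl6l, Rps12, Rps6 and Rpsa) stayed under that level and are described as values only.

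BPS-TA mice carried GGT-TTA, GGT-HIF1A_M3 and BPS-TRE-CAS9n together (n = 4 kidneys, whose columns are headed TC with the numbers 7, 8, 11 and 12). WT mice were wild type (n = 3 kidneys, WT-5, WT-6 and WT-7). Both groups were C57BL/6, ate regular chow and were killed at an age that the labels give as the number 10 with both months and weeks as its unit. According to the study's methods, the ggt promoter is active in the proximal tubule, GGT-HIF1A_M3 encodes a constitutively active HIF1A, and the tTA switches on a Cas9 nickase with guides against Bap1, Pbrm1 and Setd2 as long as no doxycycline is given. All transgenes are therefore absent from WT mice, so that their separate parts in any difference cannot be told apart, and the tissue also holds cells in which the promoter is not active. The 6 HIF1 target and glycolysis genes looked at as a check of the labels all rose, to a summed 430.7 to 548 FPKM in BPS-TA kidneys against 38.5 to 42.3 FPKM in WT kidneys.

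The ribosome translates mRNA into protein in all cells. Its 40S subunit holds the mRNA and reads the codons, its 60S subunit joins the amino acids, and each ribosomal protein is normally present in one copy per subunit, the stalk proteins P1 and P2 being the exception. Most ribosomal protein mRNAs belong to the TOP class, which start with a cytosine followed by an uninterrupted run of pyrimidines. The kinase mTORC1 controls the translation of such mRNAs through this run. In bulk tissue, fewer cells of a type and less RNA per cell cannot be told apart.

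The start of the annotated transcript is shown for some of the members named below, since the run of C and T there is the sequence feature that most ribosomal protein genes are known to share. Each line spans 10 bases before and 15 bases from the start annotated by RefSeq on GRCm38.p6. Capitals mark a run of at least 5 C or T that opens with C within 5 bases of that start. The first 4 genes rose in BPS-TA kidneys and the last 2 fell. Where RefSeq lists 2 starts (Rps24, Rps27l and Rpl3l), the upstream one is shown.
Rpl13a (chr7:45128731-45128755, minus strand): cctgcgacaagaCCTCCTCCTTTCC
Rps15a (chr7:118116133-118116157, minus strand): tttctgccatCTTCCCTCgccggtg
Rps24 (chr14:24490668-24490692, plus strand): gctggggtCCTTCCTTgcgcgttga
Rpl28 (chr7:4792955-4792979, plus strand): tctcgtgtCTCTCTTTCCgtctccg
Rps27l (chr9:66946076-66946100, plus strand): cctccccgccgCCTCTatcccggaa
Rpl3l (chr17:24727816-24727840, plus strand): ttctagctctgtcatttgacctctg
The run was 14 bases long in Rpl13a and 5 bases long in Rps27l, and Rpl3l had none of 5 bases or more. Not every member that rose had such a run near its annotated start: Rpl4 and Rps3, which are not shown, rose and had none there. The lines shown therefore do not stand for all members that rose. Whether the annotated starts are those used in these kidneys was not examined. A member without a run there is thus not shown to lie outside the TOP class. Rpl30 and Rplp1 matched no promoter entry.

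The summed level of the 83 genes was higher in every BPS-TA kidney than in any WT kidney. It was 9786, 10911, 9268 and 9706 FPKM in the BPS-TA kidneys, in the order in which their columns were named above, against 8592, 8454 and 8386 FPKM in the WT kidneys, in that order too, a ratio of group means of 1.17. This order is kept throughout. The 60S genes summed to 5003 to 5883 FPKM in BPS-TA kidneys against 4475 to 4534 FPKM in WT kidneys, and the 40S genes to 4264 to 5028 FPKM against 3880 to 4059 FPKM. Both subunits were thus higher, without overlap of the groups. TC-8 stood highest of the BPS-TA kidneys in 55 of the 75 tested genes, and TC-11 stood lowest in 34. These ranks were not counted over all tested genes, and TC-8 also had the highest total FPKM of the BPS-TA kidneys.

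The deposited scale bears on this sum. Gpx3, a secreted glutathione peroxidase of the proximal tubule, took 55.5 to 58.2% of the total FPKM in BPS-TA kidneys against 60.2 to 61.7% in WT kidneys, and the total itself was 1473810 to 1657730 FPKM against 1771790 to 1808840 FPKM. Of the total without Gpx3, ribosomal protein genes made up 1.39 to 1.53% in BPS-TA kidneys against 1.18 to 1.25% in WT kidneys. The ratio of sums was 1.21 when this total was set equal and 1.19 after quantile normalization, which gives every kidney the same distribution of values. With each kidney centred on the median of its tested genes, it was 1.04, and the groups then overlapped, from 8956 to 10229 FPKM in BPS-TA kidneys against 9010 to 9210 FPKM in WT kidneys.

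Individual genes changed little, and most of those that passed the test rose. On the log2(FPKM + 1) scale, with limma and Benjamini-Hochberg adjustment over all 12036 tested genes, 24 of 75 members rose in BPS-TA kidneys (32.0%, against 28.5% of all tested genes) and 3 fell (4.0%, against 6.56%). The share that rose lay near that of all genes. The 24 genes that rose had ratios of group means of 1.12 to 1.41. The median log2 fold change over the 75 genes was 0.16, against 0.12 over all tested genes, with quartiles of 0.031 and 0.26, and it was 0.16 in both the 60S and the 40S genes. With 0.1 in place of 1 added before the logarithm, the medians were 0.16 over members and 0.14 over all tested genes. By subunit, 15 of 46 60S genes rose and 2 fell, and 9 of 29 40S genes rose and 1 fell. The 2 groups of kidneys did not overlap for 36 members that were higher in BPS-TA (48.0%, against 35.0% of all tested genes) and for 4 that were lower (5.33%, against 8.87%).

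**Figure D1:**
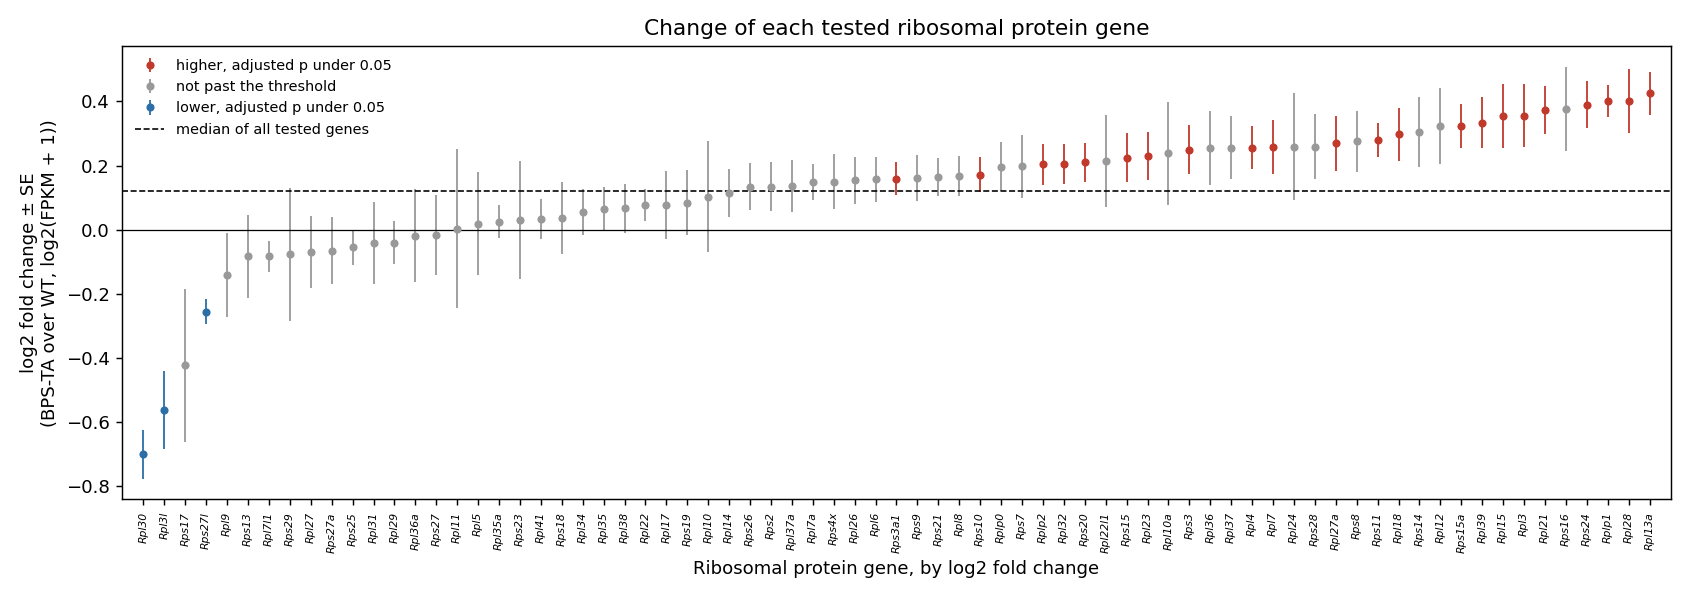
log2 fold change (BPS-TA over WT, on the log2(FPKM + 1) scale) of 73 of the 75 tested ribosomal protein genes, in order of size, with its standard error; red points rose and blue points fell at an adjusted p under 0.05 (limma), grey points did not pass. The 22 red points lie between 0.16 and 0.43, the blue points of Rpl30, Rpl3l and Rps27l lie at the low end, and the dashed line gives the median of all tested genes, 0.12.

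How many members passed depended on the scaling of the kidneys. After quantile normalization 19 members rose (25.3%, against 12% of all tested genes) and 5 fell (6.67%, against 14.4%). The median over members was then 0.11, against -0.035 over all tested genes. With totals equal without Gpx3, 39 members rose (52.0%, against 32.5%) and 3 fell (4.0%, against 5.05%). With median centring 3 members rose (4.0%, against 12.6%) and 7 fell (9.33%, against 20.6%), and the median over members was -0.014, against -0.054 over all tested genes. The median of all genes itself differed by over 0.1 between these scalings, and the median over members was above that of all genes in each of the 4 scalings but had no fixed sign. On the deposited scale that gap was mostly lost without TC-8. Against the WT mean, the median over members was 0.32 in TC-8, where that of all genes was 0.15, but 0.084 in TC-11, where that of all genes was 0.10, and without TC-8 the medians were 0.12 over members and 0.11 over all genes. Of the 24 members that rose on the deposited scale, 14 passed after quantile normalization, 3 with median centring and 7 in every refit without one kidney. The calls kept in this way were not counted over all tested genes. The share that rose also moved to the other side of that of all genes when 1 kidney other than TC-11 was left out. Without WT-5, 11 members rose (14.7%, against 24.1% of all tested genes), without WT-6, 8 (10.7%, against 19.9%), and without WT-7, 9 (12%, against 19.0%). Without TC-7, 17 rose (22.7%, against 26.2%), without TC-8, 20 (26.7%, against 27.6%), and without TC-12, 14 (18.7%, against 21.9%), whereas without TC-11, 24 rose (32.0%, against 23.0%). In every one of these refits 3 members fell. The limma fit without a trend gave 17 members that rose (22.7%, against 28.7%), and the fit with no filter on low values gave 17 of 82 (20.7%, against 21.2%). With median centring the groups did not overlap for 6 members that were higher (8.0%, against 15.8%) and 7 that were lower (9.33%, against 27.2%).

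**Figure D2:**
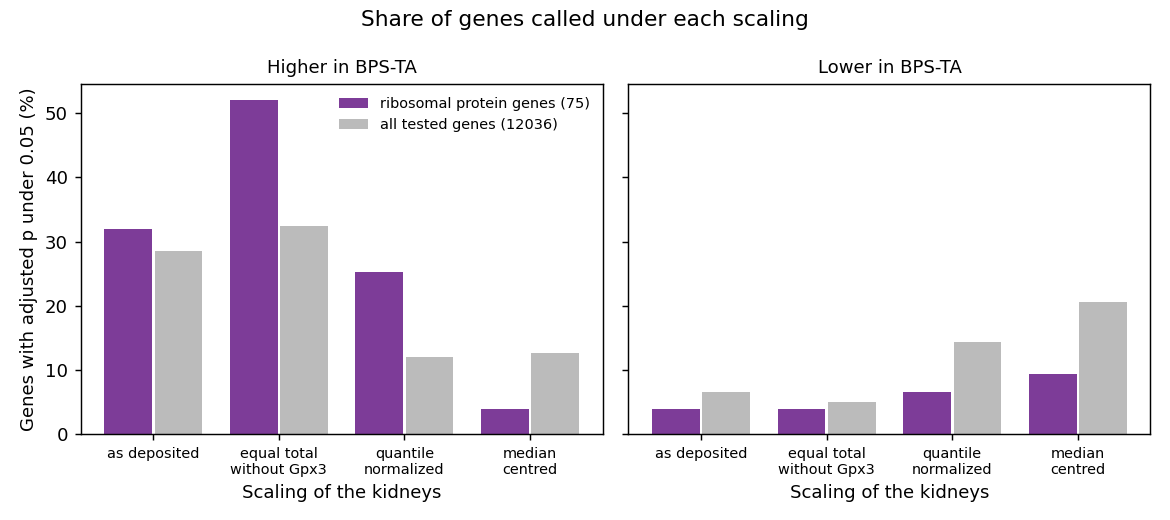
Share of genes (%) with an adjusted p under 0.05 (limma) among the 75 tested ribosomal protein genes (purple) and all 12036 tested genes (grey), higher in BPS-TA on the left and lower on the right, for 4 scalings of the kidneys. The purple share of higher genes is 32.0% as deposited, 52.0% with equal totals without Gpx3, 25.3% after quantile normalization and 4.0% with median centring.

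The members spanned a wide range of listed levels. Rpl13a was the most abundant member, and 27 of the 83 genes had a mean of at least 100 FPKM, 28 of 10 to 100 FPKM, 20 of 1 to 10 FPKM and 8 of less than 1 FPKM. The ribosome holds most of these proteins in equal number, and the spread of the listed values went together with how far the reads of a gene can be told from those of its copies. Ribosomal protein genes are known for many processed pseudogenes. In the GRCm38 annotation, words of 51 bases, the length of the reads, were counted in 1 protein-coding transcript of each member. They were then looked up in the transcripts of all other genes. The transcript picked can be a long form with much noncoding sequence, which then enters the unique share. In Rps20, for example, it had 3706 bases with 357 coding bases, and 92.5% of its words were unique. The median share of words found in no other gene was 62.1% for members of at least 100 FPKM, 32.2% for those of 10 to 100 FPKM, 23.7% for those of 1 to 10 FPKM and 20.8% for those under 1 FPKM. Across the 82 genes with a value, level and unique share had a Spearman's rho of 0.40, given as a description, since these genes share the same kidneys. The sources used here do not say how reads that fit several places were counted, so levels of members with a low unique share are uncertain.

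**Figure D3:**
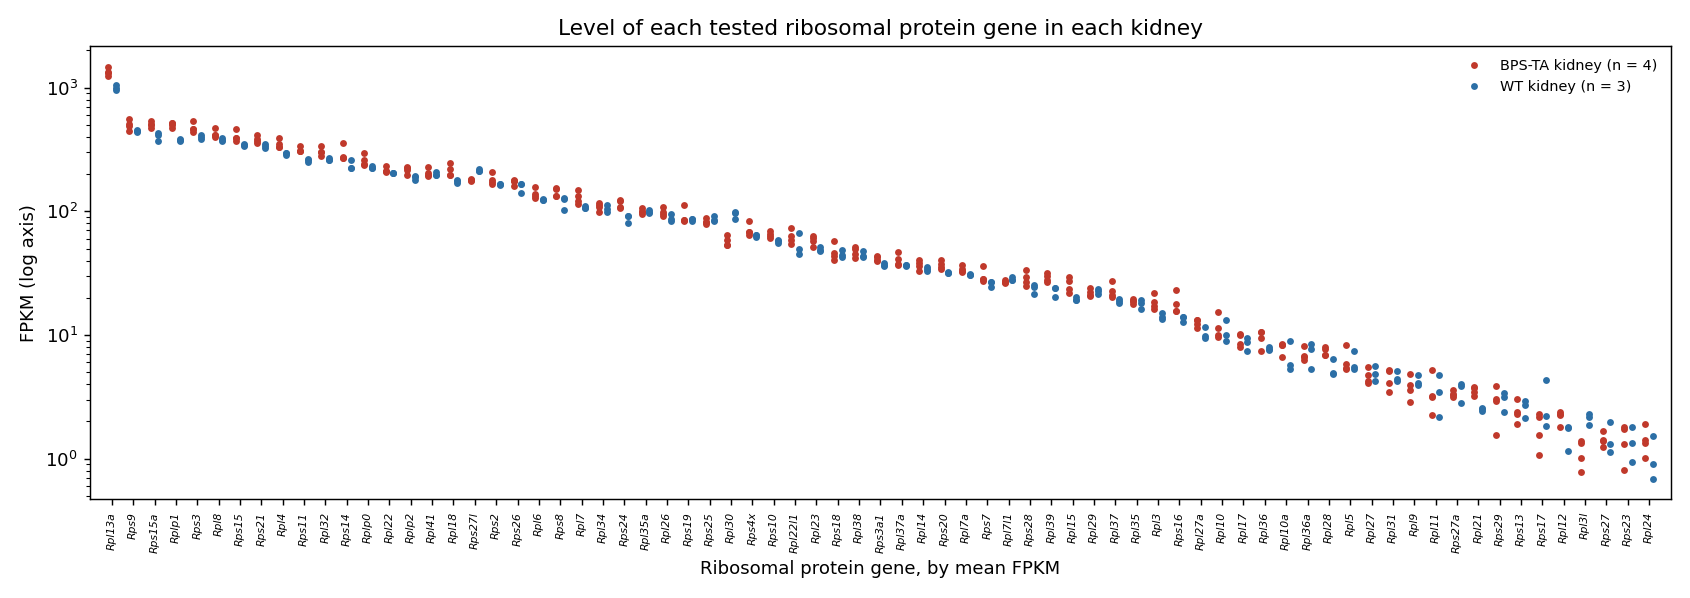
FPKM (log axis) of 73 of the 75 tested ribosomal protein genes in each kidney, from the highest to the lowest mean, with BPS-TA kidneys (red, n = 4) drawn left of WT kidneys (blue, n = 3). Rpl13a lies above all others in every kidney, Rpl30, Rps27l and Rpl3l show red points below blue points without overlap, and the genes at the low end scatter widely.

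Some core subunits had a low listed level. Rps6, the 40S protein phosphorylated by the S6 kinases downstream of mTORC1, had 0.44, 0.28, 0.26 and 0.68 FPKM in BPS-TA kidneys against 0.43, 0.20 and 0.50 FPKM in WT kidneys, and 15.5% of its words were unique. Rpsa, the 40S protein of the laminin receptor family, had 0.55, 0.87, 0.60 and 0.79 FPKM in BPS-TA kidneys against 0.64, 0.76 and 0.53 FPKM in WT kidneys, with 46.5% of its words unique, above the median of 43.6% over all members, and 27 pseudogenes sharing words with it. Both pairs of groups overlapped. With many copies the values are uncertain as levels. Rps12, Rpl19 and Rpl23a were likewise under 1 FPKM in all kidneys, with unique shares of 9.91%, 20.8% and 14.5%.

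Low values also occurred in genes with a high share of unique words. Rpl39l, a testis-expressed relative of Rpl39, was listed at 0 in all kidneys, and all of its words were unique. Rpl10l, the testis-expressed relative of Rpl10, was listed at 0 in all kidneys except TC-12, which had 0.028 FPKM. Rps29, a core 40S protein with 64.4% unique words, had 1.56 to 3.89 FPKM in BPS-TA kidneys against 2.36 to 3.39 FPKM in WT kidneys; it was named after its values were seen. Rpl6l, whose words were not counted, stood at 0.033 to 0.040 FPKM in BPS-TA kidneys against 0 to 0.071 FPKM in WT kidneys. Tested genes near the filter were few: Rpl24 and Rps23 reached 1 FPKM in 5 kidneys each and Rpl3l in 6.

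**Figure D4:**
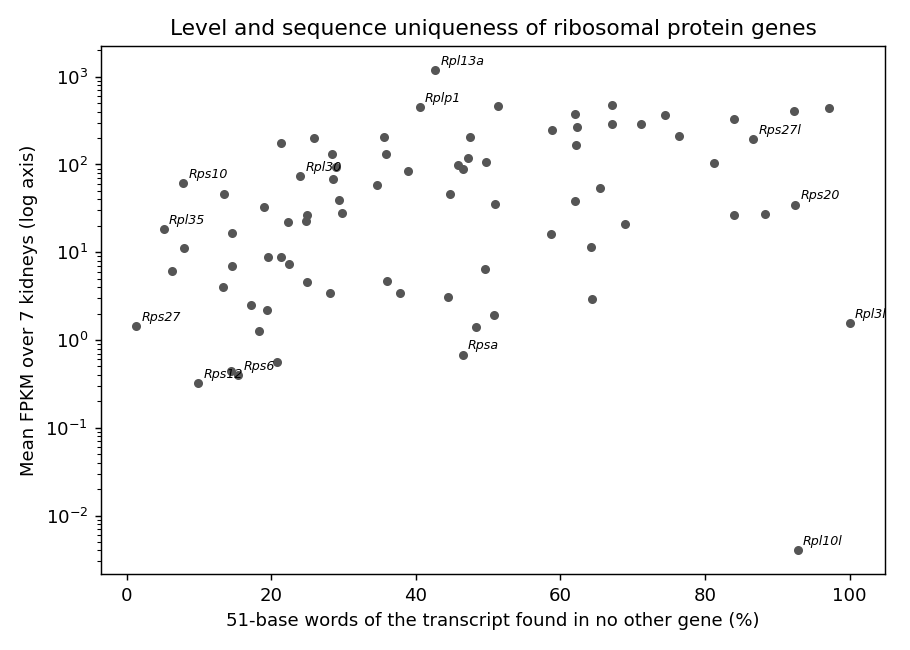
Mean FPKM over the 7 kidneys (log axis) against the share of 51-base words of the transcript found in no other annotated gene (%), 1 point for each ribosomal protein gene drawn, with both values and a mean above 0. Rps6 and Rps12 lie low at the left, Rps27 has a unique share of 1.36%, and Rpl3l has 100% at a low level.

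Increases that passed in the main fit and under all alternatives were found in 3 members of at least 100 FPKM, Rpl13a, Rplp1 and Rps24. Rpl13a, a 60S protein that outside the ribosome belongs to the GAIT complex of interferon-treated myeloid cells, had 1315, 1483, 1241 and 1333 FPKM in BPS-TA kidneys against 985, 965 and 1043 FPKM in WT kidneys. All BPS-TA kidneys lay above all WT kidneys. The means were 1342.8 ± 101 FPKM (SD, n = 4) and 998 ± 40.6 FPKM (SD, n = 3), a log2 fold change of 0.43 ± 0.067 (SE) with a limma adjusted p of 0.0025. It made up 13.4 to 13.7% of the summed ribosomal protein level in BPS-TA kidneys against 11.4 to 12.4% in WT kidneys. Of its words, 42.6% were unique, and 5 pseudogenes shared words with it, so that its level is uncertain.

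Rplp1, the P1 protein of the 60S stalk that recruits elongation factors, had 468, 516, 501 and 516 FPKM in BPS-TA kidneys against 387, 379 and 369 FPKM in WT kidneys. The BPS-TA kidneys varied little and lay well above the WT kidneys, with a log2 fold change of 0.40 ± 0.050 (SE) and a limma adjusted p of 0.0009. Rplp1 had 40.5% unique words and shared words with 4 pseudogenes, so that its level is uncertain as well. Rps24, a 40S protein that is mutated in some patients with Diamond-Blackfan anaemia, had 122, 124, 107 and 109 FPKM in BPS-TA kidneys against 90.9, 91.6 and 80.6 FPKM in WT kidneys. The groups did not overlap, and the log2 fold change was 0.39 ± 0.075 (SE) with a limma adjusted p of 0.0057. With median centring the adjusted p of Rps24 was 0.044. Its unique share was higher, at 81.25%. Among the 75 tested members these 3 rose under all 14 alternatives, and Rpl30 and Rps27l were the 2 that fell under all of them. Rpl3l fell under every alternative that tested it (limma adjusted p at most 0.039). The filter of 1 FPKM in every kidney left it out. How many of all tested genes passed under all alternatives was not counted, so these counts do not set the members apart from other genes.

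**Figure D5:**
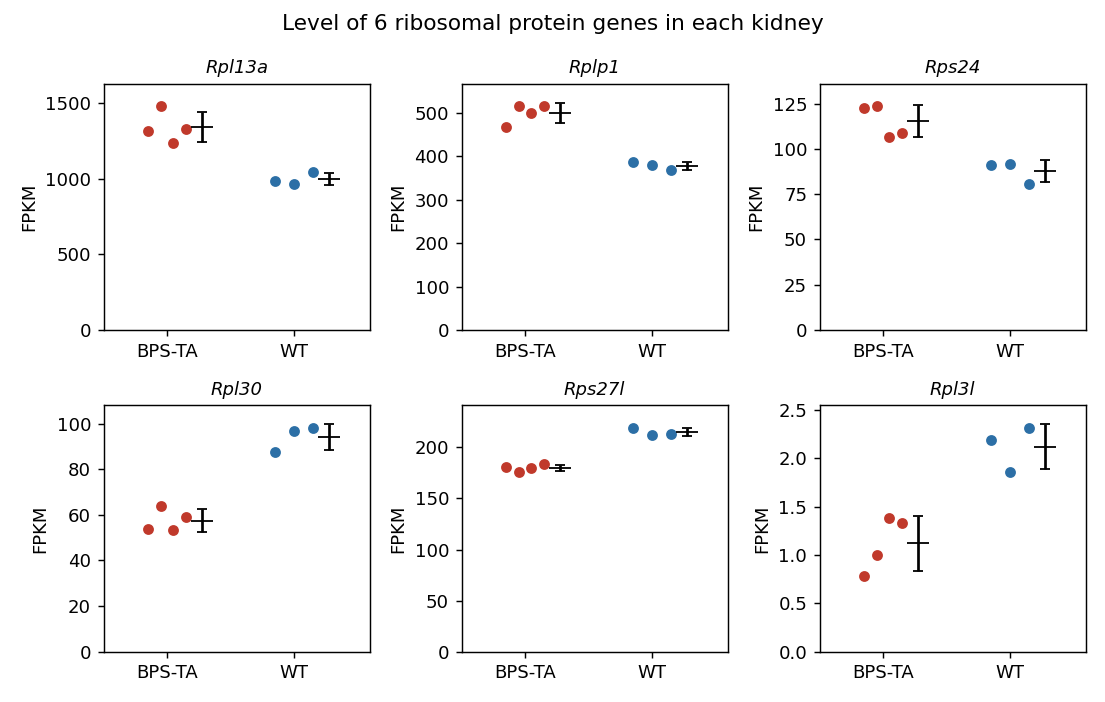
FPKM (linear axis from 0) of 6 ribosomal protein genes in each BPS-TA kidney (red, n = 4) and WT kidney (blue, n = 3), with the mean and SD beside the points in black. Rpl13a, Rplp1 and Rps24 are higher in BPS-TA kidneys and Rpl30, Rps27l and Rpl3l are lower, in each case without overlap.

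Rpl28 had 6.87, 7.64, 6.91 and 8.06 FPKM in BPS-TA kidneys against 6.36, 4.94 and 4.8 FPKM in WT kidneys, and Rpl21 had 3.18, 3.75, 3.81 and 3.46 FPKM in BPS-TA kidneys against 2.44, 2.58 and 2.51 FPKM in WT kidneys. Both 60S genes rose without overlap of the groups, with log2 fold changes of 0.40 ± 0.10 and 0.37 ± 0.075 (SE) and limma adjusted p-values of 0.017 and 0.0072. Neither passed after quantile normalization, with adjusted p-values of 0.14 and 0.30, or with median centring, with 0.085 and 0.084, and Rpl28 did not pass without WT-6 (0.066) or WT-7 (0.067). Rpl21 shared words with 80 pseudogenes.

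Rpl30 had the largest log2 fold change of all tested members on the log2(FPKM + 1) scale, and it fell; as a ratio of means, Rpl3l fell further. It encodes a 60S protein that lies at a contact between the subunits. It had 53.7, 63.8, 53.4 and 59.1 FPKM in BPS-TA kidneys against 87.4, 96.6 and 98.2 FPKM in WT kidneys. The highest BPS-TA kidney lay far below the lowest WT kidney. The means were 57.5 ± 4.95 FPKM (SD, n = 4) and 94.1 ± 5.81 FPKM (SD, n = 3), a ratio of 0.61, and the log2 fold change was -0.70 ± 0.076 (SE) with a limma adjusted p of 0.0005. Under the alternatives the log2 fold change ranged over -0.88 to -0.66 and its adjusted p reached at most 0.0039. Rpl30 made up 0.55 to 0.61% of the summed ribosomal protein level in BPS-TA kidneys against 1.02 to 1.17% in WT kidneys. In this gene 24.0% of the words were unique and 16 pseudogenes shared words with it, so that its level is uncertain.

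The other members that fell were paralogs. Rps27l, a relative of Rps27 that is a p53 target in human cells, had 180, 176, 179.5 and 183 FPKM in BPS-TA kidneys against 219, 213 and 213 FPKM in WT kidneys. Both groups were tight and lay apart. The means were 179.9 ± 2.94 FPKM (SD, n = 4) and 215 ± 3.63 FPKM (SD, n = 3), a log2 fold change of -0.26 ± 0.040 (SE) with a limma adjusted p of 0.0025. In this gene 86.7% of the words were unique. Rpl3l, the form of Rpl3 typical of heart and skeletal muscle, had 0.78, 1.002, 1.38 and 1.33 FPKM in BPS-TA kidneys against 2.19, 1.86 and 2.31 FPKM in WT kidneys, a ratio of means of 0.53. It fell without overlap, by 0.56 on the log2(FPKM + 1) scale with a limma adjusted p of 0.0091, at a level close to the filter and with 100% unique words.

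Paralogs were also compared with their canonical partners within each kidney, since a factor that multiplies all values of a kidney leaves such a ratio as it is; quantile normalization does not, and these 4 pairs were chosen after the values were seen. Rpl3l over Rpl3 was 0.048, 0.046, 0.081 and 0.071 in BPS-TA kidneys against 0.16, 0.14 and 0.16 in WT kidneys, without overlap. The exact two-sided permutation test over kidneys gave p = 0.029, the smallest that 35 splits allow, and 0.11 after Benjamini-Hochberg adjustment over the 4 pairs. Rpl3l alone was already lower, and Rpl3 alone already higher, in every BPS-TA kidney than in any WT kidney. The separation of their ratio was therefore set in advance, and its p adds no support to the calls of these genes. Rpl7l1 over Rpl7 averaged 0.21 ± 0.022 in BPS-TA kidneys (SD, n = 4) and 0.27 ± 0.013 in WT kidneys (SD, n = 3), with an exact permutation p of 0.057 (adjusted 0.11). These groups did not overlap either, at 0.19 to 0.24 in BPS-TA kidneys against 0.26 to 0.28 in WT kidneys. Here too each gene alone already separated the groups, Rpl7l1 lower and Rpl7 higher in BPS-TA kidneys. For Rpl22l1 over Rpl22, 0.29 and 0.26 in BPS-TA and WT kidneys, the exact permutation p was 0.46 (adjusted 0.46). For Rps27l over Rps27, 127.5 ± 14.0 in BPS-TA kidneys (SD, n = 4) and 153.5 ± 38.5 in WT kidneys (SD, n = 3), it was 0.31 (adjusted 0.42). Ratios of group means after quantile normalization were 0.053 in BPS-TA and 0.17 in WT for Rpl3l over Rpl3, 0.203 and 0.275 for Rpl7l1 over Rpl7 and 0.28 and 0.27 for Rpl22l1 over Rpl22, whereas for Rps27l over Rps27 the order turned, with 148 in BPS-TA and 118 in WT. A pair at the smallest possible p reaches only 0.11 after this adjustment unless other pairs are as low, so that the adjusted values say nothing for or against a difference. The denominators Rpl3 and Rps27 had unique shares of 14.5% and 1.36%, which makes those ratios uncertain as levels.

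The canonical partners themselves moved as follows. Rpl3, which lies near the peptidyl transferase centre, had 16.3, 21.8, 17.0 and 18.6 FPKM in BPS-TA kidneys against 13.9, 13.5 and 14.9 FPKM in WT kidneys and rose (log2 fold change 0.36, limma adjusted p = 0.025); it did not pass after quantile normalization (0.11), with median centring (0.18), or without TC-12, WT-5 or WT-6 (adjusted p-values of 0.057, 0.066 and 0.083). Rpl7 had 132, 148, 114 and 122 FPKM in BPS-TA kidneys against 106, 110 and 106 FPKM in WT kidneys and rose as well (0.26, adjusted p = 0.046), but not with median centring (0.47), with no filter (0.070) or without a trend (0.060), and of the refits without one kidney it passed in those without TC-8 and TC-11 only. Rpl7l1, whose product acts in making the 60S subunit, had 26.2 to 27.6 FPKM in BPS-TA kidneys against 27.9 to 29.7 FPKM in WT kidneys; it did not pass (-0.083, adjusted p = 0.22), although the groups did not overlap, and it fell after quantile normalization (-0.18, adjusted p = 0.030) and with median centring (-0.26, adjusted p = 0.0088). Rpl22 had 208 to 232 FPKM in BPS-TA kidneys against 203 to 206 FPKM in WT kidneys and Rpl22l1 54.4 to 73.5 FPKM against 45.4 to 67.0 FPKM, with adjusted p-values of 0.27 and 0.28. Rpl22 passed after quantile normalization (0.12, adjusted p = 0.049) and with equal totals without Gpx3 (0.12, adjusted p = 0.043). Rpl10, Rps4x and Rps27 did not pass, with log2 fold changes of 0.10, 0.15 and -0.016, except that Rps4x had an adjusted p of 0.0496 with equal totals without Gpx3.

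On the deposited scale, Rplp1 and Rplp2 of the stalk passed, and Rplp0 and Rpl12 did not. Rplp2, the P2 partner of P1, had 214, 230, 195 and 225 FPKM in BPS-TA kidneys against 189, 192 and 180 FPKM in WT kidneys and rose by 0.20 (log2, limma adjusted p = 0.041), though not with median centring (0.73), with no filter (0.055), without a trend (0.059) or in the 6 refits without a kidney other than TC-11. Rplp0, the base on which P1 and P2 sit, had 261, 296, 238 and 244 FPKM in BPS-TA kidneys against 223, 222 and 231 FPKM in WT kidneys, again without overlap, with a log2 fold change of 0.20 and an adjusted p of 0.080. It passed after quantile normalization (adjusted p = 0.018) and with equal totals without Gpx3 (0.013), as did Rplp1 and Rplp2. Rpl12, at the foot of the stalk, had 1.80 to 2.39 FPKM in BPS-TA kidneys against 1.14 to 1.78 FPKM in WT kidneys (0.32, adjusted p = 0.067). Its log2 fold change was 0.023 after quantile normalization (adjusted p = 0.89) and 0.15 with median centring (0.33), and the adjusted p was 0.046 to 0.20 with one kidney left out, the lowest without TC-7. Rpl12 had a ratio of means of 1.40, above that of Rplp1, an order that the pseudocount of 1 turns round on the log2 scale. The differences between the 4 were not tested.

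Rpl5 and Rpl11 form the 5S RNP, which joins the large subunit and, when free, binds Mdm2 and so stabilizes p53. Rpl5 had 8.32, 5.83, 5.38 and 5.33 FPKM in BPS-TA kidneys against 7.48, 5.46 and 5.35 FPKM in WT kidneys, a log2 fold change of 0.018 ± 0.16 (SE, limma adjusted p = 0.94). TC-7 stood apart from the other BPS-TA kidneys. Rpl11 had 3.16, 5.22, 3.19 and 2.24 FPKM in BPS-TA kidneys against 4.71, 2.17 and 3.45 FPKM in WT kidneys (0.0031 ± 0.25, adjusted p = 0.99). Both overlapped widely, with unique shares of 6.22% and 37.8% and standard errors well above the 0.050 of Rplp1, so that no change was detectable.

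The following members are named for their role and were chosen after their values were seen. Among proteins that line the exit tunnel or its mouth, Rpl4 had 352, 393, 331 and 330.4 FPKM in BPS-TA kidneys against 297, 297 and 286 FPKM in WT kidneys and rose (log2 fold change 0.26, limma adjusted p = 0.021), but not with median centring (0.36) or without WT-6 (0.057) or WT-7 (0.074). Rpl39 had 26.9, 27.7, 29.8 and 31.6 FPKM in BPS-TA kidneys against 23.9, 20.4 and 24.1 FPKM in WT kidneys and rose (0.33, adjusted p = 0.015), but not after quantile normalization (0.072), with median centring (0.17) or without WT-6 (0.052). Neither pair of groups overlapped. Rpl8, close to the peptidyl transferase centre, had 398 to 471 FPKM in BPS-TA kidneys against 369 to 388 FPKM in WT kidneys (0.17, adjusted p = 0.070); it passed after quantile normalization (0.017) and with equal totals without Gpx3 (0.013).

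In the 40S subunit, Rps15a was among the most abundant members, with 538, 499.6, 472 and 512 FPKM in BPS-TA kidneys against 427, 416 and 369 FPKM in WT kidneys. It rose without overlap (log2 fold change 0.32, limma adjusted p = 0.0082), but not with median centring (0.093). Rps3, at the mRNA entry, had 462, 542, 439.7 and 462 FPKM in BPS-TA kidneys against 417, 382 and 400.4 FPKM in WT kidneys and rose (0.25, adjusted p = 0.035), but not with median centring (0.45) or with no filter (0.055), and of the refits without one kidney it passed in those without TC-8 and TC-11 only. Rps9, also at the mRNA entry, had 505, 558, 448 and 488 FPKM in BPS-TA kidneys against 452, 449 and 436 FPKM in WT kidneys, where TC-11 lay within the WT range (0.16, adjusted p = 0.12); with equal totals without Gpx3 the adjusted p was 0.027, and without TC-11 0.045. Rps27a, made as a fusion with ubiquitin, had 3.12 to 3.57 FPKM in BPS-TA kidneys against 2.81 to 4.01 FPKM in WT kidneys (-0.066, adjusted p = 0.66), and it fell after quantile normalization (-0.33, adjusted p = 0.036). Rps23 at the decoding centre (0.029) and Rpl24 at the contact of the subunits (0.26), both near 1 FPKM, overlapped between the groups with adjusted p-values of 0.92 and 0.26.

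Some genes of ribosomal proteins have symbols outside the naming rule. Rack1, a 40S protein, had 542, 615, 501 and 516 FPKM in BPS-TA kidneys against 474, 485 and 477 FPKM in WT kidneys (log2 fold change 0.18, limma adjusted p = 0.087). Fau, which encodes a fusion of a ribosomal protein with a ubiquitin-like protein, did not pass either (0.11, adjusted p = 0.43), nor did Rpl36al, a relative of Rpl36a (-0.065, adjusted p = 0.56).

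Members were also counted by their unique share and by their level. Beside 28.5% of all tested genes that rose and 6.56% that fell, the counts were as follows. Of the 29 tested members with at least 50% unique words, 13 rose and 2 fell, with a median log2 fold change of 0.22. Of the 46 others, 11 rose and 1 fell, with a median of 0.12. Of the 38 members at or above the median level, 16 rose and 2 fell, against 8 and 1 of the 37 below it; after quantile normalization, where 12% of all tested genes rose and 14.4% fell, these counts were 19 and 2 against 0 and 3. Spearman's rho of the log2 fold change was 0.33 with level, 0.24 with unique share and 0.13 with coding length (n = 75 genes from the same kidneys). The difference between these classes was not tested. Members are short: 68 of the 75 fell into the shortest quartile of coding length (75 to 840 bases) over all tested genes, where the median log2 fold change of the other genes was 0.078 against 0.16 for the members. Over all genes that median was 0.081, 0.12, 0.13 and 0.15 from the shortest to the longest quartile.

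Promoters from 250 bases before to 50 bases after the annotated start (RefSeq, GRCm38.p6) were matched for 62 of the 83 members and for 16076 listed genes. The C and T run described above was present in 46.8% of members against 21.8% of listed genes. On either strand, GGGCGG (GC box) was found in 61.3% of members against 50.9% of listed genes, CCGGAAG (ETS factors) in 41.9% against 13.2%, AAGATGG (YY1) in 16.1% against 7.28% and CACGTG (E-box) in 9.68% against 9.10%. ACGTG or GCGTG, the core bound by HIF proteins, was found in 69.4% against 53.4%, and ACGTG lies within CACGTG. Tested members with the C and T run had a median log2 fold change of 0.16 (n = 27, of which 10 rose), against 0.15 in matched members without it (n = 29, of which 5 rose), where 28.5% of all tested genes rose; the difference between both classes was not tested. These matches describe the letters in the windows only and do not sort the members into TOP and other mRNAs.

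Genes that work with the ribosomal proteins were read from lists chosen with earlier results of these data known. Their counts stand beside 28.5% of all tested genes that rose and 6.56% that fell on the deposited scale, 12% and 14.4% after quantile normalization and 12.6% and 20.6% with median centring. Of 21 tested elongation factors and other TOP mRNAs, 8 rose (38.1%, against 28.5% of all tested genes) and 0 fell, with a median log2 fold change of 0.18. Npm1, a nucleolar chaperone of ribosome assembly, had 63.7, 77.0, 64.9 and 61.9 FPKM in BPS-TA kidneys against 49.1, 51.3 and 53.9 FPKM in WT kidneys (log2 fold change 0.37, limma adjusted p = 0.0098), and Eif4b (0.36) and Pabpc1 (0.30), a helicase cofactor of initiation and the poly(A) binding protein, rose as well; with median centring these 3 did not pass (adjusted p-values of 0.11, 0.12 and 0.17). The list's sum was 4131 to 4890 FPKM in BPS-TA kidneys against 3811 to 3874 FPKM in WT kidneys. In this list 8 rose (38.1%, against 12%) and 0 fell after quantile normalization, and 0 rose and 1 fell (4.76%, against 20.6%) with median centring. Of 27 initiation factors 7 rose (25.9%, under the 28.5% of all tested genes) and 0 fell, at the median of all genes, 0.12. Among the 7 were Eif6, which keeps free 60S subunits from joining (0.35), Eif2b4, a subunit of the exchange factor of eIF2 (0.32), and the helicase Eif4a2 (0.29). None of these 3 passed with median centring (adjusted p-values of 0.083, 0.28 and 0.23). Eif2b4 also did not pass after quantile normalization (0.056), with no filter (0.058) or without TC-7, TC-8, TC-11, WT-6 or WT-7 (0.053 to 0.11), nor Eif4a2 without WT-6 (0.069) or WT-7 (0.068). After quantile normalization 5 of the 27 rose (18.5%, against 12%) and 1 fell, and with median centring 0 rose and 6 fell (22.2%, against 20.6%).

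Of 37 tested factors that build ribosomes 9 rose (24.3%, under the 28.5% of all tested genes) and 0 fell, at a median of 0.091, under the 0.12 of all genes and the 0.16 of the members. Nhp2, a protein of H/ACA particles, had 63.4, 71.7, 68.5 and 68.5 FPKM in BPS-TA kidneys against 46.7, 48.4 and 48.2 FPKM in WT kidneys (log2 fold change 0.50, limma adjusted p = 0.00046). Nop56 of the box C/D particles (0.44) and nucleolin, Ncl (0.39), also rose. After quantile normalization 4 of the 37 rose (10.8%, against 12%) and 1 fell, and with median centring 3 rose (8.11%, against 12.6%) and 4 fell. Of 14 genes of RNA polymerase I and its factors, which make the precursor of ribosomal RNA, 1 (7.14%), Taf1b, rose (0.51) and 1, Polr1d, a subunit shared with RNA polymerase III, fell by 0.44 on the log2 scale, with 23.7 ± 2.98 FPKM in BPS-TA kidneys (SD, n = 4) and 32.4 ± 0.65 FPKM in WT kidneys (SD, n = 3). The median of this list was 0.045. After quantile normalization 0 rose and 3 fell (21.4%, against 14.4%), at a median of -0.16 and with an adjusted p of 0.064 for Taf1b, and with median centring 1 rose and 3 fell (21.4%, against 20.6%), at a median of -0.13.

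Of 26 tested genes of mTORC1 and TOP mRNA control 8 rose (30.8%, near the 28.5% of all tested genes) and 0 fell, at a median log2 fold change of 0.16. After quantile normalization 4 rose (15.4%, against 12%) and 1 fell, and with median centring 4 rose (15.4%, against 12.6%) and 2 fell. Ddit4, an inhibitor of mTORC1 and a known HIF1 target, had 46.8, 48.7, 28.5 and 29.8 FPKM in BPS-TA kidneys against 13.5, 6.92 and 8.91 FPKM in WT kidneys (log2 fold change 1.88, limma adjusted p = 0.0014). Eif4ebp1, the repressor of cap-dependent initiation that mTORC1 inactivates, had 22.3, 22.2, 17.0 and 19.6 FPKM in BPS-TA kidneys against 7.26, 8.03 and 7.42 FPKM in WT kidneys (1.31, adjusted p = 7.9e-05). Pdcd4, an inhibitor of the helicase eIF4A, rose by 0.57. The groups lay apart for these genes.

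Of 10 tested genes of the ribosomal protein, Mdm2 and p53 surveillance path, 7 rose (28.5% of all tested genes did) and 0 fell, with a median log2 fold change of 0.38. Both after quantile normalization and with median centring 4 rose and 0 fell, where 12% and 12.6% of all tested genes rose. Cdkn1a, the p53 target that encodes p21, had 18, 19.3, 20.9 and 20.1 FPKM in BPS-TA kidneys against 3.52, 3.22 and 2.56 FPKM in WT kidneys (2.33, limma adjusted p = 2.7e-06). The pro-apoptotic Bbc3 rose by 0.78 and Phlda3, an inhibitor of Akt, by 0.53. Rps27l was lower in the same BPS-TA kidneys. The p53 targets in this list are not particular to ribosomal proteins. The paper also reports higher Bbc3 and Cdkn1a and proposes a DNA damage response. Whether ribosomal proteins had a part in these rises was not tested.

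Markers of other cells moved with the groups, again beside 28.5% of all tested genes that rose and 6.56% that fell. Of 9 tested macrophage markers 9 rose, with a sum of 106 to 169 FPKM in BPS-TA kidneys against 57.4 to 62.7 FPKM in WT kidneys, and Lyz2 had 25, 22.3, 39.2 and 51.3 FPKM against 9.03, 9.24 and 8.22 FPKM. Of 5 tested B and plasma cell markers 5 rose, with a sum of 163 to 287 FPKM in BPS-TA kidneys against 10.8 to 32.2 FPKM in WT kidneys, mostly Jchain. Of 10 distal nephron and collecting duct markers 8 rose, with 3521 to 4199 FPKM in BPS-TA kidneys against 2159 to 2530 FPKM in WT kidneys. Of 15 tested proximal tubule markers 10 fell and 1, Slc5a2, rose, with 47876 to 54975 FPKM in BPS-TA kidneys against 60258 to 63831 FPKM in WT kidneys. After quantile normalization 3 proximal tubule markers rose and 8 fell, and with median centring 0 rose and 11 fell, where Slc5a2 had an adjusted p of 0.57. Of 2 tested T and NK cell markers 1, Thy1, rose, and it passed neither after quantile normalization (0.22) nor with median centring (0.078). Marker genes listed at 0 in all kidneys were 1 of the 16 proximal tubule markers and none of the other lists. Within the BPS-TA kidneys, TC-8 had the highest ribosomal protein sum and the lowest B and plasma cell sum (163 FPKM). TC-8 also had the highest proximal tubule sum (54975 FPKM) and the highest total (1657730 FPKM). Its ribosomal protein sum stayed the highest of the BPS-TA kidneys under every scaling used here. It was 1.53% of the total without Gpx3 and 10229 FPKM with median centring. Why TC-8 stood highest was not tested. TC-12 had the highest macrophage sum (169 FPKM) and the third highest ribosomal protein sum. The part of these cells in the ribosomal protein values was not tested.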

How the data were processed

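Kidney cortex RNA was sequenced by the authors as single reads of 51 bases. The authors' processing notes name mm9 and DESeq 1.32, without the aligner or the counting program. The deposited table of values per protein-coding gene and kidney names no unit, and FPKM was inferred from the values, so depth and read counts are unknown and no counting interval is given. The authors' table of their own comparison (mean level, log2 fold change with its error, test statistic, p and adjusted p) was not used. Columns were assigned to BPS-TA or WT by name, and the number of unused columns of kidneys was 0. The study's methods give 7 WT kidneys, of which the table and the labels hold 3. The labels call the samples biological replicates, but whether each kidney came from its own mouse is not stated for every column.

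Of the 22053 entries, 83 entries of 37 repeated identifiers, none of them a member, were left out, which left 21970. log2(FPKM + 1) of genes with at least 1 FPKM in at least 3 kidneys was fitted with limma 3.58.1 (trend, R 4.3.3), two-sided, with Benjamini-Hochberg adjustment and a threshold of 0.05; the fold changes understate those of low genes. The script was tested on simulated data. Alternatives were quantile normalization, median centring, equal totals without Gpx3, a pseudocount of 0.1, no filter, 1 FPKM in every kidney, limma without trend and each kidney left out. Sequence words came from GENCODE vM21 (GRCm38), promoters from RefSeq GRCm38.p6; as the authors' build differs, coordinates refer to GRCm38 only. Python 3.11.15 was used for the rest.

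Members and lists were chosen with earlier results of these data known. The text names up to 6 members with the largest rise and 6 with the largest fall past the threshold, the 4 highest and 4 lowest tested members, members of set roles (stalk, 5S RNP, S6 kinase substrate, ubiquitin fusion, paralog pairs, Rpsa), and up to 3 genes of each list past the threshold with 1 that moved against them; others are marked where they stand. Some genes that the rule covers are counted but not reported by name here or drawn.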

Additional observations from a re-analysis of the deposited data

Results flagged for a closer look

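Each named member with a value above 0 and the summed level, 34 in all, were looked at for a BPS-TA kidney far from the other 3, and 2 had a gap to the nearest kidney that exceeded Dixon's 95% critical value, as a share of the group's range; chance gives about 1 in 20. Rpl10l had a gap of 1.0 of the range, from a single value of 0.028 FPKM in TC-12 beside 0 in the other BPS-TA kidneys. With the other 3 at 0, any value above 0 gives this gap, so the rate of 1 in 20 does not apply to it. Rpl5 had a gap of 0.835 of the range, with 8.32 FPKM in TC-7 against 5.33 to 5.83 FPKM in the other BPS-TA kidneys. Rpl10l was too low to be tested between BPS-TA and WT kidneys, and Rpl5 did not pass.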

How the results depend on the processing

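Over all tested genes, 3425 rose and 790 fell. After quantile normalization 1445 rose and 1728 fell, with median centring 1515 and 2480. Of the members, 24 rose and 3 fell as deposited; 5 fell after quantile normalization, 39 rose with equal totals without Gpx3, and 3 rose and 7 fell with median centring, where 13 in place of 40 members did not overlap between the groups (6 higher, 8.0% against 15.8% of all genes, and 7 lower, 9.33% against 27.2%), the ratio of sums was 1.04 and the median log2 fold change was -0.014. Without trend, or with no filter, 17 members rose (22.7% against 28.7% of all genes, and 20.7% against 21.2%). Leaving out each kidney gave 8 to 24 members that rose, a share under that of all genes except without TC-11, 2808 to 4206 genes called, 2276 to 3301 that rose and 484 to 905 that fell, the lowest of the last without WT-6. The causes were not tested, though each such fit has fewer kidneys.

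Log2 fold changes of named genes that did not pass changed sign. After quantile normalization they were -0.079 for Rpl10, -0.27 for Rpl11, -0.041 for Rpl24, -0.20 for Rpl5, -0.27 for Rps23 and -0.080 for Fau. With median centring they were -0.072 for Rpl10, -0.17 for Rpl11, -0.099 for Rpl22, -0.16 for Rpl5, -0.15 for Rps23, -0.026 for Rps4x, -0.014 for Rps9, -0.0081 for Rpl8 and -0.062 for Fau, and with equal totals without Gpx3 0.010 for Rps27. With each kidney left out they ranged from -0.029 to 0.26 for Rpl10, -0.22 to 0.20 for Rpl11, -0.11 to 0.15 for Rpl5, -0.11 to 0.16 for Rps23, -0.11 to 0.12 for Rps27 and -0.19 to 0.0067 for Rps27a. Of the other values of named members under the alternatives, 335 kept direction and side of the threshold, 42 lost the call and 13 gained it. No paired analysis was possible because the columns carry no replicate numbers of the labels. With no counts, the depth that limits low members is unknown.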
